A study of Mus musculus with 15 samples.

Results

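The miR-29 family is represented on the mouse miRNA array by mmu-miR-29a, mmu-miR-29b and mmu-miR-29c, 3 of the 567 mouse miRNAs on the array. The members were taken by name, without their star strands (the opposite arms of the hairpins), and all 3 were among the 103 miRNAs that were tested. The data came from 15 orthotopic liver grafts of male mice, 1 graft per array, in 5 groups of 3: a syngeneic group sampled 5 days after transplantation, and allograft groups sampled after 5, 8, 14 and 100 days. Allografts went from B10.BR (H2-Kk) donors to B10.D2 (H2-Kd) recipients, which differ at the major histocompatibility complex, and no immunosuppressant was given. The labels of the syngeneic arrays carry the same strain pair, so only their titles and source names identify them as syngeneic, and the strain of those mice is not given in the sources used here. The age of the mice is not given there either, and the only syngeneic grafts are those of day 5, so that each later allograft differed from them in time as well as in donor.

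MiRNAs are short RNAs that pair with messenger RNAs, mostly through the seed near their 5′ end, and lower the output of their targets. The miR-29 family is best known as a brake on fibrosis, because its targets include collagens and other genes of the extracellular matrix. In liver it is made by hepatocytes and by hepatic stellate cells, the main source of scar collagen, in which transforming growth factor-β lowers it.

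The mature sequences are shown because the members share their seed and differ at few other bases, which bears on how far an array can tell them apart. They are given 5′ to 3′ from RefSeq, with the seed (bases 2 to 8) in capitals.
miR-29a: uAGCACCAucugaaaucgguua
miR-29b: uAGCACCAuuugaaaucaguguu
miR-29c: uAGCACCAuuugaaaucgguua
Of 1679 mouse mature miRNA names in the RefSeq table, these 3 have this seed. Counted from 1 at the 5′ end, miR-29a and miR-29c differ by 1 substitution, C10U, and are identical at the other 21 of 22 bases. From miR-29a to miR-29b the substitutions are C10U, G18A, U21G and A22U, and miR-29b has 1 base more at its 3′ end. How far the probes of miR-29a and miR-29c bind the other miRNA was not tested.

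The members come from 4 hairpins at 2 loci. Mir29a (chr6:31062660-31062747) and Mir29b-1 (chr6:31063023-31063093) lie 275 bases apart on the minus strand of chromosome 6 in GRCm38.p6, and no annotated gene contains them. Mir29b-2 (chr1:195037040-195037120) and Mir29c (chr1:195037547-195037634) lie 426 bases apart on the plus strand of chromosome 1, both within the long noncoding RNA gene A330023F24Rik. The hairpins are shown to place each member at its locus, with the mature miRNA in capitals.
Mir29a: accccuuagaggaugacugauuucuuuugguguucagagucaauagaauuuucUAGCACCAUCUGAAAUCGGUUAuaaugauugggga
Mir29b-1: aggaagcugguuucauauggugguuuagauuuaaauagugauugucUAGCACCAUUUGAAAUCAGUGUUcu
Mir29b-2: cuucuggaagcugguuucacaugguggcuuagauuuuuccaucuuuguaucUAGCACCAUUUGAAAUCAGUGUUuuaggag
Mir29c: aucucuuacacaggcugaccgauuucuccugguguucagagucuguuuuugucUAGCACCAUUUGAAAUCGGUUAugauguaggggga
Mature miR-29b has the same sequence from either locus, so its signal on the array is the sum of both.

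All 3 members were well measured. Each had 2 probes with 10 spots per probe, and at least 0.9 of the spots of every probe were well above background on each of the 15 arrays. The signal of a member, the sum of its probes' mean spot intensities, ranged from 274 to 1562 for miR-29a, from 397 to 1172 for miR-29b and from 233 to 599 for miR-29c. The star strands miR-29a*, miR-29b* and miR-29c* were detected on 0 of 15 arrays. Levels are given below as scaled log2 signal, the log2 of a member's signal over its array's 75th percentile across the 52 miRNAs detected on all arrays, so that 0 stands for that percentile. Probes differ in how brightly they report a miRNA, so levels were compared between groups and not between members.

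Across the 15 arrays that percentile ranged from 395 to 1018 and the number of detected miRNAs from 60 to 115. Replicate 1 of day 100 stood apart in its additive error of background, 13.1 against 2.67 to 3.66 on the other arrays. Slide 1 carried syngeneic replicates 1 and 2 with all arrays of day 8 and day 14, and slide 2 carried syngeneic replicate 3 with all arrays of day 5 and day 100. Slide therefore cannot be told apart from group between day 14 and either day 5 or day 100, except through the syngeneic arrays.

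MiR-29b was lower in the allografts, by the most on day 8 and day 100, although without scaling between arrays its differences from the syngeneic grafts were 0.078 and 0.14 on day 5 and day 14 and -0.45 and -0.31 on day 8 and day 100, none of them called. Without scaling, the median of all tested miRNAs itself lay 0.54, 0.69, 0.71 and 0.33 above the syngeneic grafts on the 4 days in turn, so the falls described here are relative to the other miRNAs of the array. Its scaled log2 signal in the syngeneic grafts was -0.21, 0.86 and 0.93. In the allografts of day 5 it was 0.10, -0.05 and 0.15. The syngeneic replicate 1 lay far below the other 2 syngeneic grafts and within the range of the allografts. On day 8 the level was -0.73, -0.58 and -0.34, and on day 14 it was -0.33, 0.0085 and 0.0014. On day 100 it was -0.22, -0.38 and -0.44. All arrays of day 8 and day 100 lay below all 3 syngeneic arrays, whereas those of day 5 and day 14 overlapped with them. The highest array of day 100 (-0.216) lay only just below the lowest syngeneic array (-0.212). The order of the group means was syngeneic, day 5, day 14, day 100 and day 8, and each pair of neighbors in that order overlapped.

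By limma over all 15 arrays with Benjamini-Hochberg adjustment over the 103 tested miRNAs, used for every adjusted p below, miR-29b dropped by 1.08 log2 units on day 8 (SE 0.25, adjusted p = 0.0044), which is 2.11-fold lower than in the syngeneic grafts. On day 100 it fell by 0.87 (SE 0.25, adjusted p = 0.022), or 1.83-fold. The SE pools the spread of all groups, while the SD of miR-29b was 0.64 in the syngeneic grafts and 0.10 to 0.19 in the allograft groups. Neither call was kept in a fit of just the groups compared or by the methods' t-test after adjustment. The difference was -0.63 on day 14 (adjusted p = 0.053) and -0.46 on day 5 (adjusted p = 0.20), neither past the threshold of 0.05. Without syngeneic replicate 1 the differences were -1.002 on day 14 (adjusted p = 0.00029) and -0.83 on day 5 (adjusted p = 0.0049). The call of day 100 was lost without syngeneic replicate 2 (adjusted p = 0.091), without syngeneic replicate 3 (0.055) or without day 100 replicate 3 (0.069). With slide as a block the differences were -0.87 (day 8, adjusted p = 0.017) and -1.27 (day 100, adjusted p = 0.024). The blocked value of day 100 is the difference from 1 array, syngeneic replicate 3, the only syngeneic array on slide 2.

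MiR-29c, which shares its locus with 1 of the miR-29b hairpins, was also lower in the allografts, except that without scaling its differences were 0.22, 0.013 and 0.0068 on day 5, day 8 and day 14 and -0.11 on day 100. Its syngeneic arrays had the smallest SD of the 3 members (0.25, against 0.48 for miR-29a and 0.64 for miR-29b). Its scaled log2 signal was -0.53, -0.45 and -0.05 in the syngeneic grafts and -0.56, -0.69 and -0.75 on day 5. On day 8 it was -1.12, -0.89 and -0.86. The arrays of day 5 lay just below the lowest syngeneic array and those of day 8 further below, with no overlap between these 3 groups. On day 14 the level was -1.42, -0.94 and -0.98, and on day 100 it was -0.96, -1.15 and -0.95. Day 8, day 14 and day 100 overlapped with each other, so the levels after day 5 had no order beyond their spread.

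Compared with the syngeneic grafts, miR-29c fell by 0.62 by day 8 (SE 0.17, adjusted p = 0.012), which is 1.53-fold. It fell by 0.77 by day 14 (adjusted p = 0.0023), or 1.70-fold, and by 0.67 by day 100 (adjusted p = 0.014), or 1.59-fold. On day 5 the difference was -0.32 (adjusted p = 0.19) although the arrays did not overlap. With slide as a block the differences were -0.47 (day 8, adjusted p = 0.032), -0.62 (day 14, adjusted p = 0.0086) and -0.96 (day 100, adjusted p = 0.0091), the last against syngeneic replicate 3 alone. The call of day 8 was lost without day 8 replicate 1 (adjusted p = 0.052) and within slide 1 alone (adjusted p = 0.065).

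**Figure D1:**
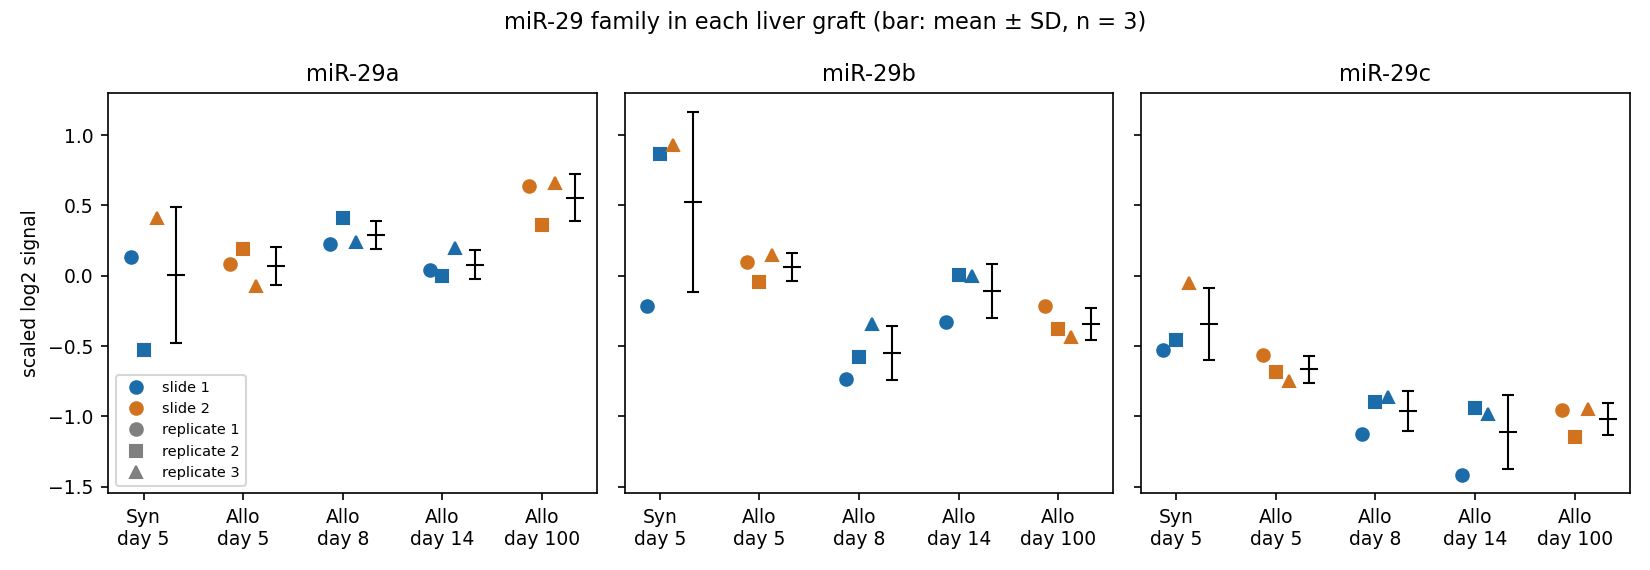
Scaled log2 signal (vertical axis, 0 at the array's 75th percentile) of miR-29a, miR-29b and miR-29c in each of the 15 liver grafts, by group; color gives the slide, symbol the replicate, and the bar the group mean ± SD (n = 3). MiR-29c on day 8, day 14 and day 100 sits below every syngeneic array on this scale (without scaling its differences on day 8 and day 14 are 0.013 and 0.0068), while miR-29a is highest on day 100.

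MiR-29a, which differs from miR-29c at 1 base, was called in no comparison with the syngeneic grafts, and its mean was above theirs on all 4 days on this scale. The sign of day 14 turned with the 75th percentile taken over all miRNAs (-0.0014), the brightest probe (-0.038) and the total signal of the scanner software (-0.013), that of day 5 with slide as a block (-0.34), and both without syngeneic replicate 2 (-0.21 on day 5 and -0.19 on day 14). Its scaled log2 signal in the syngeneic grafts was 0.14, -0.53 and 0.41, a range that held all arrays of day 5 (0.08, 0.19 and -0.08), of day 8 (0.23, 0.41 and 0.24) and of day 14 (0.04, -0.0028 and 0.20). On day 100 it was 0.64, 0.36 and 0.66, which is above all arrays of day 5 and day 14. In the order of the means (day 100, day 8, day 14, day 5, syngeneic), day 8 and day 14 did not overlap, and the other neighbors did.

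The largest difference of miR-29a from the syngeneic grafts was 0.55 on day 100 (95% interval 0.11 to 0.99, adjusted p = 0.054), followed by 0.29 on day 8 (interval -0.15 to 0.72, adjusted p = 0.32). On day 5 and day 14 the differences were 0.06 (interval -0.38 to 0.50) and 0.07 (interval -0.36 to 0.51). With slide as a block the difference on day 100 was 0.15 (adjusted p = 0.75) and that on day 5 was -0.34 (adjusted p = 0.36), against a single syngeneic array on that slide. Without syngeneic replicate 3 the difference of day 100 was 0.75 (adjusted p = 0.0085), and without day 100 replicate 2 it was 0.65 (adjusted p = 0.0498).

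Counted by comparison with the syngeneic grafts, 0 of 3 members were called on day 5, where 25.2% of the 103 tested miRNAs were called, and none of the members had an unadjusted p under 0.05 by limma or by the methods' t-test. On day 8, 2 of 3 were called, beside 40.8% of all tested, and 17.5% of all tested were called lower. On day 14, 1 of 3 was called, beside 45.6% of all tested and 18.4% called lower. On day 100, 2 of 3 were called, beside 31.1% of all tested and 14.6% called lower. All 5 member calls were falls, and all 4 comparisons use the same 3 syngeneic arrays. The median difference of all tested miRNAs was 0.12, 0.14 and 0.07 on day 5, day 8 and day 14 and less than 0.01 in size on day 100. Counted by overlap with the syngeneic arrays, 1, 2, 1 and 2 of the 3 members had none at the 4 times in turn, beside 30.1%, 51.5%, 54.4% and 29.1% of all tested miRNAs. For miR-29b on day 100 this rests on a highest array of -0.216 against a lowest syngeneic array of -0.212. The moderated F statistic across all groups called miR-29c (adjusted p = 0.0094) and miR-29b (adjusted p = 0.019) but not miR-29a (adjusted p = 0.12), beside 64.1% of all tested miRNAs.

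Between allograft days, 0 of the 12 member comparisons were called by limma, with 3 of 12 at an unadjusted p under 0.05 and, by the methods' t-test, 5 of 12 unadjusted and 1 of 12 after adjustment (miR-29a, day 14 against day 100). By overlap, 1 of 3 members was apart between day 14 and day 5, 2 between day 14 and day 8, 1 between day 14 and day 100 and 3 between day 100 and day 5, where 42.7%, 46.6%, 65% and 46.6% of all tested miRNAs were. The background was 12.6% of tested miRNAs called for day 14 against day 5, 5.83% for day 14 against day 8, 51.5% for day 14 against day 100 and 29.1% for day 100 against day 5. Day 100 minus day 5 was 0.49 for miR-29a (adjusted p = 0.091). Those groups share slide 2, and within it, or with slide as a block, that difference had adjusted p-values of 0.048 and 0.040. Day 14 minus day 100 was -0.48 for miR-29a (adjusted p = 0.066), and 0.13 with slide as a block (adjusted p = 0.75). MiR-29c differed by -0.45 between day 14 and day 5 (adjusted p = 0.097), and by -0.011 with slide as a block (adjusted p = 0.99). Day 14 lies on slide 1 and day 5 and day 100 on slide 2. The blocked values of day 14 against either thus take the slide from the syngeneic arrays, with only replicate 3 on slide 2. Day 14 minus day 8 was 0.44 for miR-29b (adjusted p = 0.38).

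**Figure D2:**
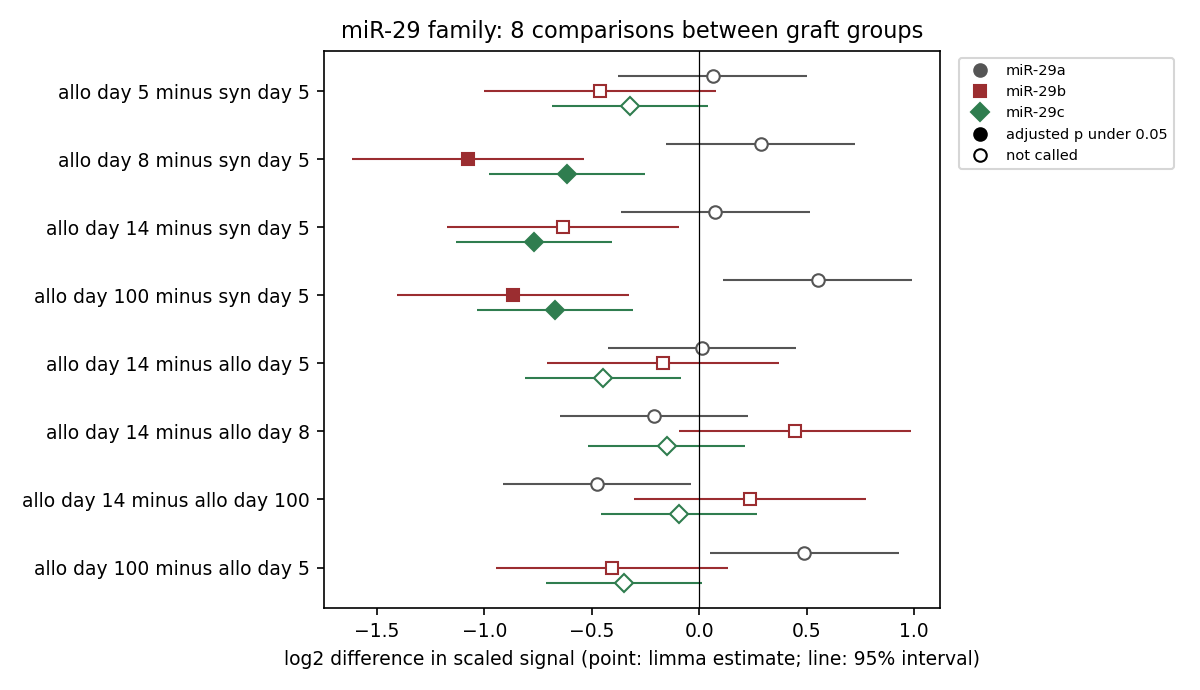
Log2 difference in scaled signal (horizontal axis) of the 3 members in 8 comparisons between graft groups; points are limma estimates, lines 95% intervals, and filled points have an adjusted p under 0.05. The 5 filled points are falls of miR-29b and miR-29c against the syngeneic grafts, 0 of which were called without scaling, where miR-29c is at 0.22, 0.013 and 0.0068 on day 5, day 8 and day 14 and miR-29b at 0.078 and 0.14 on day 5 and day 14.

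The members' unequal change was read without any scaling between arrays from the log2 ratio of 2 members on the same array. The ratio of miR-29a to miR-29c was 0.66, -0.08 and 0.46 in the syngeneic grafts. It was 0.65, 0.88 and 0.67 on day 5 and 1.35, 1.30 and 1.101 on day 8. On day 14 it was 1.46, 0.94 and 1.18, and on day 100 it was 1.60, 1.51 and 1.61. From day 8 on every allograft lay above every syngeneic graft, and day 100 was also above all arrays of the other 4 groups. The mean ratio rose 1.87-fold on day 8, 1.79-fold on day 14 and 2.33-fold on day 100 over the syngeneic grafts, each with a two-sided exact permutation p of 0.1 (0.17 after adjustment over 24 ratios), the smallest that 3 against 3 can give.

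The ratio of miR-29a to miR-29b followed another course. It averaged -0.52 ± 0.87 (SD, n = 3) in the syngeneic grafts, with 0.0023 ± 0.23 on day 5. It was 0.84 ± 0.23 on day 8 and 0.90 ± 0.18 on day 100, but 0.19 ± 0.19 on day 14. Day 8 and day 100 lay above all other groups and day 14 lay below both (exact p = 0.1 for day 14 against either). The ratio of miR-29b to miR-29c averaged 0.87 ± 0.51 in the syngeneic grafts, within whose range all allografts lay, and it was 0.41 ± 0.10 on day 8 and 1.01 ± 0.07 on day 14 (exact p = 0.1). Among all 1326 pairs of the 52 miRNAs detected on every array, the share of ratios with no overlap against the syngeneic grafts was 42.5%, 64%, 64.2% and 50.8% at the 4 times in turn. Of the 3 member ratios, 0, 2, 1 and 2 had no overlap. Between days 2 of 3 member ratios had none for day 14 against day 5, 2 for day 14 against day 8, 3 for day 14 against day 100 and 2 for day 100 against day 5, beside 52.9%, 51.8%, 65.8% and 53.8% of all pairs.

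**Figure D3:**
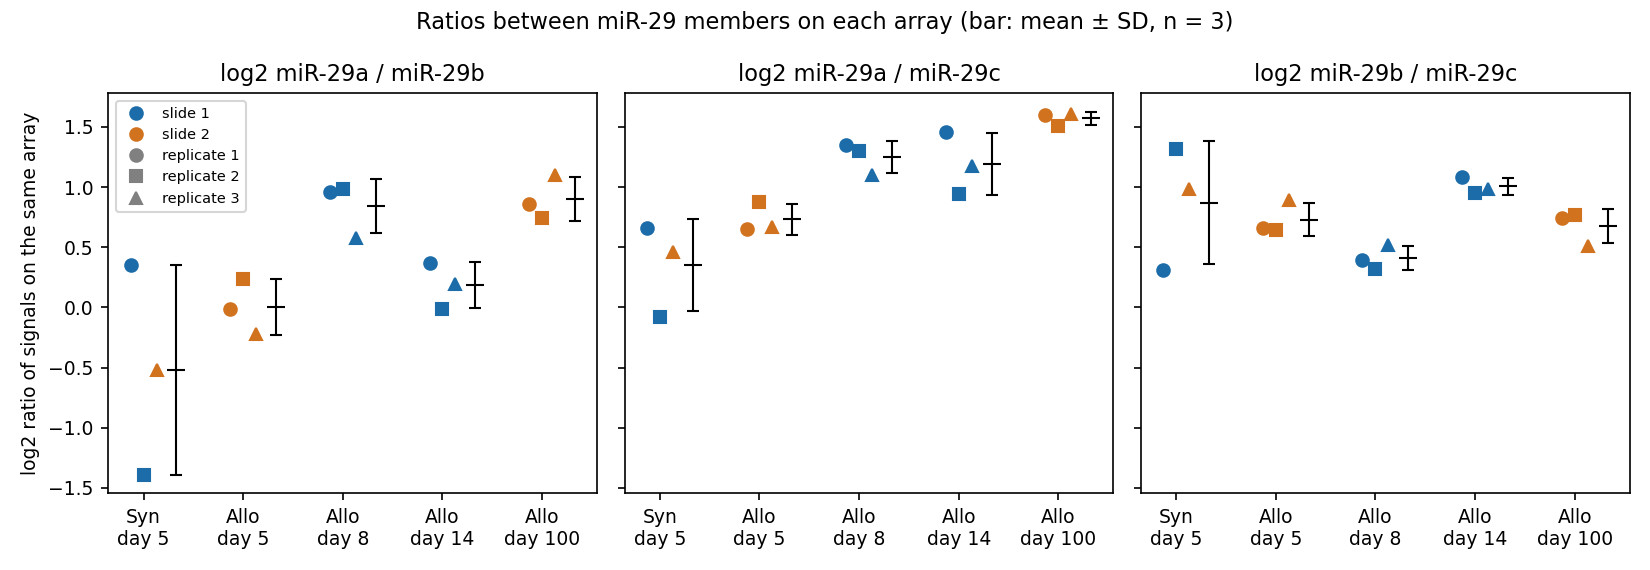
Log2 ratio of the signals of 2 members on the same array (vertical axis), by group, with the group mean ± SD (n = 3); color gives the slide and symbol the replicate. The ratio of miR-29a to miR-29c is highest on day 100 (1.51 to 1.61), while that of miR-29a to miR-29b is high on day 8 and day 100 and lower on day 14.

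Both probes of each member gave the same sign in all 4 comparisons with the syngeneic grafts. The brighter probe carried 73.6% to 78.2% of the signal of miR-29a, 88.5% to 91.4% of that of miR-29b and 53.0% to 56.5% of that of miR-29c. For miR-29b the difference of day 8 from the syngeneic grafts was -1.07 by the brighter and -1.09 by the dimmer probe. For miR-29c the difference of day 14 was -0.79 by the dimmer and -0.75 by the brighter probe. For miR-29a the 2 probes gave 0.49 and 0.57 on day 100, and 0.23 (dimmer) and 0.02 (brighter) on day 14.

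Over the 15 arrays, scaled levels of miR-29b and miR-29c had a Pearson correlation of 0.77, while miR-29a had -0.48 with miR-29b and -0.19 with miR-29c. The points share arrays and scaling, so these are descriptions. The pattern most like that of miR-29c was shown by miR-30a (r = 0.91), miR-101b (0.90) and miR-101a (0.89). All are on the list of other antifibrotic miRNAs used below, which was drawn up with results of these data known. Taken on deviations from the group means, these correlations with miR-29c were 0.83, 0.48 and 0.44. The pattern most like that of miR-29b was shown by miR-30e (0.87), the tRNA fragment listed as miR-720 (0.84) and miR-212 (0.83), which was above background on 0 of the 9 arrays of day 8, day 14 and day 100. Those most like miR-29a were miR-10a (0.91) and the clustered miR-125b-5p (0.90) and miR-99a (0.89). Without scaling, miR-30a and miR-30e kept the first rank for miR-29c and miR-29b, and miR-10a had rank 5 for miR-29a, while miR-101b and miR-101a gave 0.61 and 0.68 with miR-29c and miR-720 and miR-212 gave 0.37 each with miR-29b.

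Other miRNAs known to restrain liver fibrosis were mostly lower as well on this scale, though not without scaling. Of 11 on the list, 8 were tested, and compared with the syngeneic grafts 4, 5, 6 and 4 of the 8 fell at the 4 times in turn. Among all tested miRNAs, 6.8%, 17.5%, 18.4% and 14.6% were called lower on these days. The median difference of the list was -0.47, -0.41, -0.91 and -0.51, and without scaling, where all tested miRNAs shifted upward, it was 0.07, 0.22, -0.13 and 0.05 with 0, 0, 1 and 1 of the 8 called lower. With the 75th percentile over all miRNAs, 0, 3, 5 and 2 were called lower. MiR-30a, which restrains connective tissue growth factor, fell by 0.58, 0.76, 0.82 and 0.66, with differences of -0.04 to -0.13 without scaling. MiR-101b fell by 2.00 on day 14 (adjusted p = 4.4e-06), the largest fall on the list, and by 1.57 on day 100. MiR-146a, an inhibitor of NF-κB signaling in leukocytes as well as in stellate cells, rose on all 4 days, by 1.49 on day 14. MiR-19b was called on 0 days and miR-30c on day 14 only, and their differences ran from -0.54 to 0.47 and from -0.48 to 0.18.

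Of the 11 miRNAs on the list of profibrotic miRNAs, 10 were on the array and 7 were tested, and 1, 2, 3 and 2 of these rose on the 4 days, when 18.4%, 23.3%, 27.2% and 16.5% of all tested miRNAs were called higher. Their median difference was 0.46, 0.37, 0.32 and 0.16. With the 75th percentile over all miRNAs 0, 1, 1 and 0 were called higher, and without scaling the median difference was 0.86, 0.78, 0.80 and 0.53. MiR-27a rose on all 4 days, by 0.83, 0.86, 1.33 and 0.65, although with the 75th percentile over all miRNAs the adjusted p was 0.051 on day 5 and 0.070 on day 100. MiR-34a rose on day 14 and day 100, by 0.95 and 0.85, and miR-221 on day 8 and day 14, by 0.83 and 0.95, and each of these 4 calls was lost with that percentile (adjusted p from 0.072 to 0.15). MiR-21, the profibrotic miRNA of activated stellate cells and macrophages, gave 0.48, -0.022 and 0.025 on the first 3 of these days and fell by 0.75 on day 100 (adjusted p = 0.12 with that percentile). MiR-33 was above background on 0 of 3 arrays of day 8 and called lower there and on day 14, where 2 of 3 arrays lay at the floor, so its differences are not given as folds. MiR-221 was detected on 1 of 3 syngeneic arrays. It passed the filter through allograft groups where it was high, so its rises were partly built in. Both lists were drawn up with results of these data known, and their counts are descriptions.

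**Figure D4:**
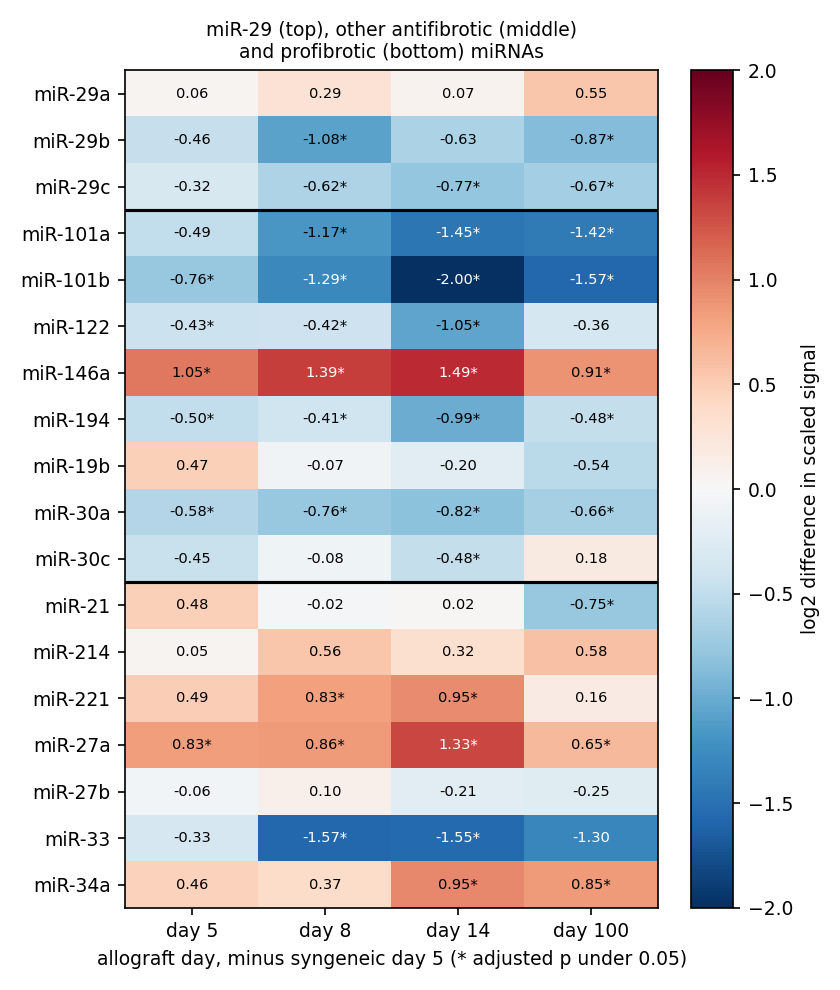
Log2 difference in scaled signal of each allograft group minus the syngeneic grafts (color and printed value; an asterisk marks an adjusted p under 0.05) for the miR-29 family (top), the other antifibrotic miRNAs (middle) and the profibrotic miRNAs (bottom) that were tested. MiR-29b and miR-29c are negative in all 4 columns, as are miR-101a, miR-101b, miR-122, miR-194 and miR-30a (without scaling, only miR-101b and miR-30a of these 7 are), whereas miR-146a and miR-27a are positive in all 4. Values of miR-33 on day 8, day 14 and day 100 are set by the floor, with 2 of 3 arrays at it on day 14 and on day 100. Those of miR-214 are partly so, with 2 of 3 syngeneic arrays at the floor, and that of miR-221 on day 100, with 1 of 3 arrays at it.

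Markers of cell types moved with the same comparisons, and miR-122 and miR-194 are also on the antifibrotic list and miR-214 on the profibrotic list. All 4 hepatocyte miRNAs (miR-122, miR-148a, miR-192 and miR-194) were detected on all arrays, miR-122 at a median signal of 14953, and 3, 4, 4 and 2 of them fell on the 4 days, with a median difference of -0.45, -0.45, -1.02 and -0.39 (0.08, 0.18, -0.25 and 0.16 without scaling, with 0 called; 0, 1, 4 and 0 called lower with the 75th percentile over all miRNAs). The share of all tested miRNAs called lower was 6.8%, 17.5%, 18.4% and 14.6% on these days. The summed log2 level of the 4 hepatocyte miRNAs ran from 4.91 to 5.16 in the syngeneic grafts, from 3.74 to 4.10 on day 14 and from 4.54 to 4.80 on day 100. Signals were summed, so miR-122 weighs most in it (the median signals of miR-192, miR-148a and miR-194 were 1749, 539 and 399). Of 6 leukocyte miRNAs 5 were tested, and 5, 3, 5 and 2 of these rose. Among all tested miRNAs, 18.4%, 23.3%, 27.2% and 16.5% were called higher on these days. On the syngeneic arrays miR-155 lay at the floor on 3 of 3, miR-342-3p on 2 of 3 and miR-142-5p on 1 of 3. These miRNAs passed the filter through allograft groups where they were high, so their rises were partly built in and the counts are descriptions. MiR-223 differed by 1.86, 1.99, 2.38 and 0.80, whereas miR-155 was well above background on 0 of 3 syngeneic arrays, so no difference is given for it. The summed log2 level of the 6 leukocyte miRNAs was -0.64 to 0.77 in the syngeneic grafts, 1.64 to 2.09 on day 14 and 0.12 to 0.61 on day 100. MiR-150 was detected on 0 arrays. On day 100 the summed leukocyte level, in which miR-142-3p weighs most (median signal 917, against 436 for miR-223), overlapped with that of the syngeneic grafts. MiR-223 and miR-342-3p were called higher, the latter detected on 2 of 3 arrays of that day and at the floor on 2 of 3 syngeneic arrays. On that day the summed hepatocyte level lay below all syngeneic arrays, as did 16.5% of all tested miRNAs taken singly. MiR-192 and miR-194 fell by 0.43 and 0.48, and miR-122 and miR-148a differed by -0.36 and -0.32 (adjusted p = 0.076 and 0.14).

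For stellate, stromal and smooth muscle cells the array gave little: of 5 markers 4 were on the array and miR-214 was the only one tested. MiR-214 had differences of 0.05 to 0.58 and 0 calls on the 4 days. It lay at the floor on 2 of 3 syngeneic arrays, 2 of 3 of day 5, 1 of 3 of day 14 and 1 of 3 of day 100. Its differences are thus partly set by the floor, and its 0 calls give no measure of these cells. MiR-143 was detected on 5 of 15 arrays and miR-145 on 0. The endothelial miR-126-3p had differences of 0.24 to 0.32 and 0 calls (adjusted p = 0.0502 on day 8). It was called higher on day 14 and day 100 with the median as scaling, and on day 8 and day 14 without scaling. The erythroid miR-451 rose on day 5, day 8 and day 14, by 0.99, 1.21 and 1.55, and differed by 0.59 on day 100 (adjusted p = 0.17). With the 75th percentile over all miRNAs its calls of day 5 and day 8 were lost (adjusted p = 0.14 and 0.061). The erythroid miR-144 was called lower on day 8, where it was above background on 0 of 3 arrays, and on no other day. In whole graft tissue, fewer cells of a type and less miRNA per cell cannot be told apart. The part of these markers in the levels of the miR-29 family was not tested.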

How the data were processed

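MiRNAs were measured in 15 liver grafts on 1-color Agilent mouse miRNA arrays. The authors deposited the spot intensity of each array as written by Feature Extraction (version 9.5.1.1, per the file headers): background-subtracted, detrended, on a linear scale and not normalized between arrays. The deposited table of normalized values was not used.

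Spots of a probe were averaged, outlier spots left out, and probes of a miRNA summed. Detection required a share of 0.5 or more of a probe's spots well above background. Each array was scaled to the 75th percentile of the 52 miRNAs found on every array, values under -5.21 after log2 were set to it, and the 103 mouse miRNAs found on every array of 1 or more groups were fitted with limma (version 3.58.1, R 4.3.3), 1 mean per group over all 15 arrays, with Benjamini-Hochberg adjustment within each comparison and a threshold of 0.05. The fit was tested on simulated data. The study's Student's t-test ("the methods' t-test"), other scalings, background correction, probe summaries, filters and blocks, and each array left out in turn were alternatives. The other scalings were applied to the lists after the data were seen. Named are the members, the members of the lists, and per member the 3 miRNAs with the highest Pearson correlation. The members and lists were chosen with earlier results of these data known. Sequences and positions are from RefSeq (GRCm38.p6). The number of arrays limits the precision. The limma p-values rest on a spread within groups that is pooled over all 5 groups and moderated across the 103 tested miRNAs. They therefore do not measure the spread of the 3 grafts of a group alone.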

Additional observations from a re-analysis of the deposited data

How the results depend on the processing

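Of the 12 comparisons of the members with the syngeneic grafts, 5 were called. Among the alternatives, quantile normalization called 6, the median as scaling 6, the brightest probe 7, the 75th percentile over all miRNAs 2, no filter on dim miRNAs 1, a fit of just the groups compared 2, the adjusted t-test of the methods 0 and no scaling 0. Leaving out 1 array gave 4 to 7. Of all tested miRNAs, limma as used above called 26, 42, 47 and 32 on the 4 days in turn. The adjusted t-test called 18, 21 and 1 on day 8, day 14 and day 100, and a fit of just the groups compared called 1 on day 5. For the 12 comparisons between days (0 called), quantile normalization, the median as scaling, the brightest probe and the filter of 1.5 times the mean gave 2 each. Slide as a block, all 15 arrays detected, the trend and robust fit and the adjusted t-test gave 1 each. A fit of just the groups compared gave 3, the unadjusted t-test 5, and leaving out 1 array 0 to 3.

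Without scaling, the median of all tested miRNAs shifted upward against the syngeneic grafts (0.54, 0.69, 0.71 and 0.33), and miR-29c turned to 0.22, 0.013 and 0.0068 (day 5, 8 and 14), and miR-29b to 0.078 and 0.14 (day 5 and 14). In the same setting miR-29b was -0.45 on day 8 and -0.31 on day 100, miR-29c was -0.11 on day 100, and the day comparisons turned to 0.065 (miR-29b, day 14 minus day 5) and 0.12 (miR-29c, day 14 minus day 100). The falls of miR-29b and miR-29c are thus relative to the other miRNAs of the array. With the 75th percentile over all miRNAs, differences from the syngeneic grafts were -0.75 (miR-29b) and -0.56 (miR-29c) on day 100 and -0.68 (miR-29c) on day 8, no longer called.

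The estimates stayed the same but lost the call without a filter and with only the groups compared for miR-29b on day 8 (-1.08) and day 100 (-0.87) and miR-29c on day 100 (-0.67), and without a filter also for miR-29c on day 8 (-0.62). The adjusted t-test lost these and miR-29c on day 14 (-0.77), and the unadjusted one miR-29b on day 100 (-0.87). Within slide 1, miR-29c on day 8 was -0.47. Calls were gained for miR-29a on day 100 with the brightest probe (0.58), quantile normalization (0.82), the median as scaling (0.53), and, at 0.55, all 15 arrays detected, the filter of 1.5 times the mean and the trend and robust fit. They were gained for miR-29b on day 14 with the brightest probe (-0.70), normexp (-0.52) and the software's total signal (-0.72). At -0.63 they were also gained with both filters, the trend and robust fit and the replicate block. Within slide 2 the difference of miR-29b on day 5 was -0.86. The syngeneic arm there is 1 array that the fit takes to vary like the other groups, so no call is read from it.

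MiR-29a near 0 changed sign on day 14 with the 75th percentile over all miRNAs (-0.0014), the brightest probe (-0.038) and the total signal (-0.013), and on day 5 with slide as a block or within slide 2 (-0.34). Day 14 minus day 5 turned to -0.086, -0.20 and -0.039 in the first 3 of these. With the median as scaling, day 14 minus day 8 turned to 0.020 (miR-29a) and 0.078 (miR-29c), and day 14 minus day 100 to 0.010 (miR-29c). With slide as a block, day 14 minus day 100 turned to 0.13 (miR-29a) and 0.34 (miR-29c), and day 14 minus day 5 to 0.43 (miR-29b). The blocked values between slides take the slide from the syngeneic arrays, with only replicate 3 on slide 2. Any further cause of these changes was not tested.

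Leaving out 1 array at a time gave the following ranges of difference from the syngeneic grafts. For miR-29a they were -0.21 to 0.26 (day 5), -0.19 to 0.28 (day 14) and 0.28 to 0.75 (day 100). For miR-29b they were -0.83 to -0.26 (day 5), -1.002 to -0.43 (day 14) and -1.24 to -0.67 (day 100). For miR-29c they were -0.71 to -0.47 on day 8. Between days, miR-29a ran from -0.058 to 0.076 (day 14 minus day 5) and miR-29c from -0.18 to 0.056 (day 14 minus day 100). Replicate numbers did not pair the samples (correlation of deviations from -0.65 to 0.45, median -0.05), and the replicate block called 6 of the 12 syngeneic comparisons.

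The number of tested miRNAs called against the syngeneic grafts ranged over the alternatives from 1 to 27 on day 5, 18 to 46 on day 8, 21 to 55 on day 14 and 1 to 43 on day 100, and with slide as a block it was 5, 46, 49 and 16. Signal over background did not limit the members, which were detected on all arrays.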
